A study of Homo sapiens with 8 samples.

Results

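The comparison concerned where the glucocorticoid receptor (GR) was found on the genome of A1-2 cells before and after dexamethasone (Dex), a synthetic glucocorticoid. A1-2 is a derivative of T47D, an established human breast cancer line, and is described in the series as having both GR and the progesterone receptor (PR). As is known of the line, its GR comes from a stably introduced expression construct. Chromatin was taken from untreated cells (time point 0 min) and from cells given 10 nM Dex for 60 min, and both groups had first been kept in charcoal-treated serum and then without serum. GR was precipitated with the same mix of 2 antibodies, and the DNA was sequenced (ChIP-seq). Each condition was 1 library, so no difference has a replicate check, no p-value is given, and intervals (95%) cover counting error only.

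Sites were chosen by position. GR peaks of chromosomes 1 to 22 and X that overlapped no peak of the A1-2 input DNA were merged over the untreated and Dex lists wherever they overlapped by at least 1 bp. That made 18527 regions, of 51963 when the 7 antibody lists of the series are merged. Regions found after Dex only, 18195 of them (98.2%), are called gained. Regions found in both lists numbered 220 (1.19%) and are called kept, and 112 regions (0.605%) found without hormone only are called lost. Because several untreated peaks could fall in 1 Dex peak, the 220 kept Dex peaks held 282 untreated peaks. These names describe calls: the depth of the libraries was unknown, and a site gained or lost may lie under the calling threshold in the other list.

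GR is a nuclear receptor that waits in the cytoplasm in a complex with chaperones. A glucocorticoid releases it from there, and it enters the nucleus and binds DNA at glucocorticoid response elements, inverted repeats of a short half-site, often in enhancers that are already accessible. PR, the receptor of progestins such as R5020, belongs to the same subfamily and recognises nearly the same element. In breast epithelium both are known as regulators of differentiation and growth.

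Gained sites were narrow and mostly of modest score, with a small number of very strong ones. The deposited score is a peak's own value and is taken here as -10 times the log10 of its p, so it was read only within a list. Gained peaks were 232 to 7908 bp wide, with a median of 658 bp and the middle of the distribution between 554 bp (the 25th percentile) and 780 bp (the 75th). Their scores ran from 100.02 to 3203, with a median of 192, a 75th percentile of 347 and a 90th of 707. At the upper end 80 gained sites scored 3100 or more, where the score nears a ceiling and hardly ranks sites. The lower end lies at the calling threshold, with 10% of gained sites at 110.4 or less. Over the whole Dex list wider peaks scored higher (Spearman's rho 0.48 across the peaks of 1 library, a description only).

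**Figure D1:**
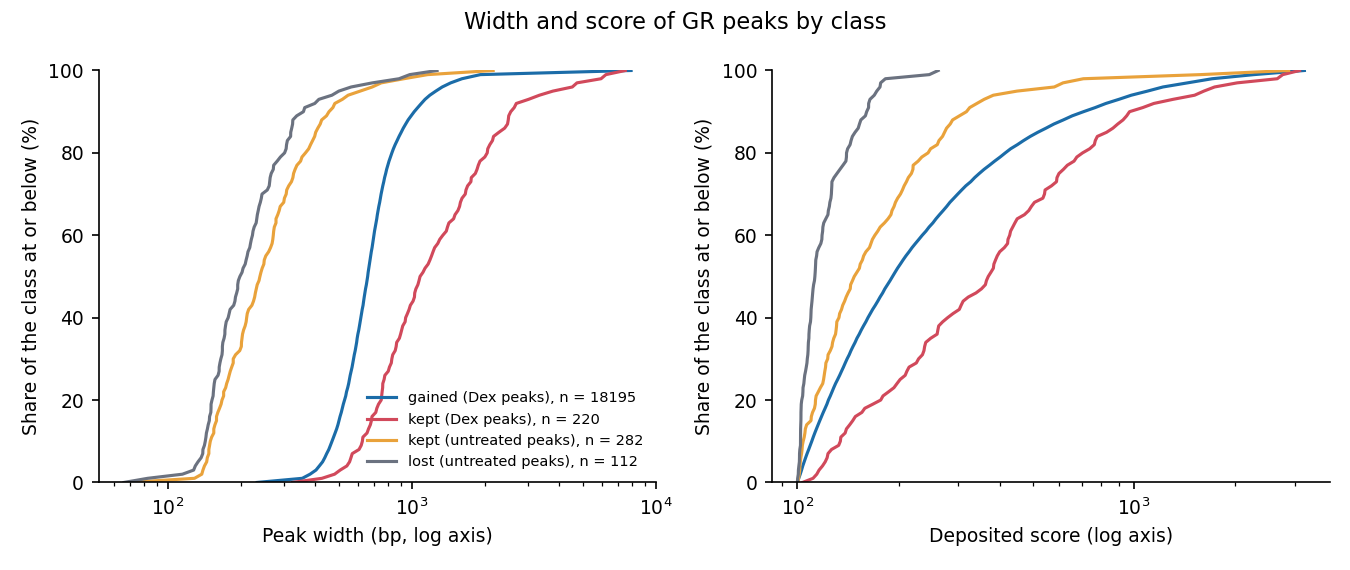
Cumulative share of each class (percent, vertical axis) against peak width in bp (left, log axis) and deposited score (right, log axis). Kept Dex peaks (median 1079 bp, score 369) lie to the right of gained ones (658 bp, 192), and lost untreated peaks (197 bp, 113) lie to the left of kept untreated ones (238 bp, 148).

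The gained sites of highest score lay on 4 chromosomes. The first was on chromosome 14 from 95737736 to 95739063 (score 3203, 1328 bp), with another GR Dex peak 1646.5 bp away. Next came chromosome 1 from 215337891 to 215338548 (3187, 658 bp) and from 11629409 to 11630280 (3178, 872 bp), then chromosome 3 from 32078322 to 32079030 (3162, 709 bp) and chromosome 7 from 47831198 to 47832017 (3154, 820 bp). All 5 also had PR peaks after R5020 in A1-2 and in MTVL cells, the T47D line that serves as the control. In A1-2 cells the PR score was 3100 at each, and in MTVL cells it was 3100 at 4 of them and 1185 at the one on chromosome 1 at 215337891. Only the sites on chromosomes 14 and 3 had a GR peak after R5020 as well, with scores of 235 and 187.

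Kept sites were wide and high in the Dex list. The 220 kept Dex peaks had a median width of 1079 bp and a median score of 369, at the 76.4th percentile of the Dex list. Width enters the choice itself, since a wider peak meets an untreated peak more easily. In the highest-scoring decile of the Dex list, where width enters in the same way, kept peaks were wider too, with a median of 2324 bp (44 peaks) against 854 bp for gained peaks (1798). Of the kept Dex peaks 43 held 2 or more untreated peaks, and at most 5. The untreated peaks in them were much narrower, with a median of 238 bp: 277 of 282 lay wholly inside the Dex peak, which was 5.16 times as wide at the median, and the midpoints stood 201 bp apart. The untreated list had narrower peaks than the Dex list throughout, with a smallest width of 66 bp against 232 bp, and whether the width was set by the calling of each library was not tested.

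The strongest kept sites differed between the lists. By Dex score the first lay on chromosome 1 from 110706938 to 110712783 (3100 after Dex), a peak of 5846 bp that held 5 untreated peaks, the highest of score 320. The next, on chromosome 20 from 32319764 to 32320971, scored 2942 after Dex and 286 without hormone, and had PR peaks of 3100 in both cell lines. By untreated score the first was on chromosome 21 from 9825456 to 9827606, with 2877 without hormone and 501 after Dex. On chromosome 5 a peak from 139930060 to 139930829 had 2354 and 1515, and on chromosome 1 one from 155214404 to 155214835 had 1462 and 899. Across the 282 kept untreated peaks the score in one list said little of the score in the other (rho 0.15, with peaks that share a Dex partner).

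Lost sites were few and weak. Their scores ran from 100.08 to 262, with a median of 113 and a 75th percentile of 131, against a median of 148 for kept untreated peaks. With the untreated list divided by score into 4 parts of equal size, the share kept was 48.5% (38.3 to 58.7) at scores of 100.08 to 110.8, then 66.3% (56.1 to 75.6) and 73.5% (63.6 to 81.9), and 97.98% (92.9 to 99.8) at scores from 190.2 up. In that highest part 2 of 99 peaks were lost. Many lost peaks had a Dex peak close by: 25 within 500 bp, 34 within 1000 bp and 67 within 20 kb, while 45 had none within 20 kb. At the border of the rule, the lost peaks nearest to a Dex peak were one on chromosome 16 from 34633887 to 34634028, which touched it with 0 bp between them, and one on chromosome 2 from 99550040 to 99550258, at 21 bp from it. The kept untreated peak with the smallest overlap, 69 bp, lay on chromosome 19 from 27735178 to 27735246.

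The lost site of highest score reached from 35028034 to 35028435 on chromosome 16 (262), followed by one from 15671602 to 15671925 on chromosome 11 (254). The former was a PR site of A1-2 cells after R5020 (score 778), and the latter overlapped a peak of no other list. Chromosome 12 had a lost site from 49454224 to 49454824 (184), at a PR peak of A1-2 cells after R5020 of score 140. The next, on chromosome 14, spanned 100993037 to 100993341 (177) and lay at such a peak of score 202. Of the 112 lost peaks 41 (36.6%, 27.7 to 46.2) were at a peak of no other antibody list, compared with 13 of 282 kept untreated peaks (4.61%, 2.48 to 7.75). The 2 shares were not matched for score.

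Lists that took no part in the choice were of PR in both lines, without hormone and after 10 nM R5020 for 60 min. Another was of GR in A1-2 cells after R5020. Shares of kept and gained sites differed at each of these lists except that of untreated MTVL PR. At A1-2 PR peaks after R5020 the order depended on how sharing was defined. Gained sites were PR sites of either line: 73.6% (73.0 to 74.3) lay at a PR peak of A1-2 cells after R5020 and 69.9% (69.3 to 70.6) at one of MTVL cells, close to the 73.8% and 69.3% of all GR Dex peaks, of which they make up nearly all. Kept Dex peaks were PR sites in A1-2 cells, with 88.6% (83.7 to 92.5), but seldom in MTVL cells, with 16.8% (12.1 to 22.4). The difference of kept and gained sites was 15.0 percentage points (10.1 to 18.6) at PR peaks of A1-2 cells and -53.1 points (-57.5 to -47.6) at those of MTVL cells. With sharing defined as midpoints within 200 bp, the former turned to 63.0% for kept and 68.4% for gained sites, while the latter stayed at 12.6% and 63.1%.

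**Figure D2:**
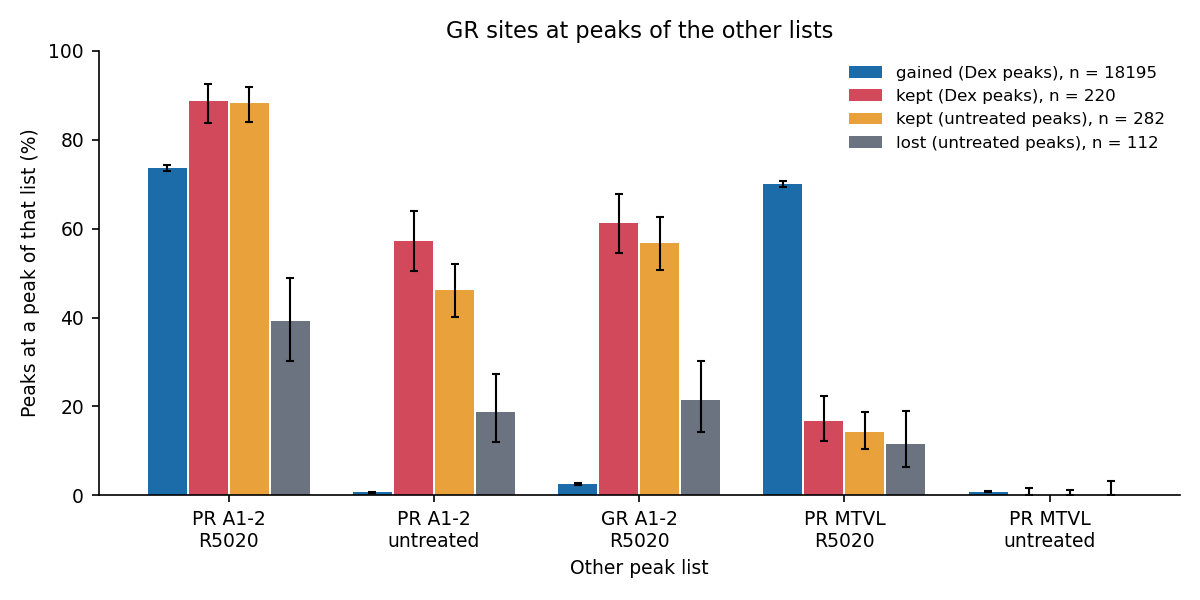
Share of each class (percent, bars from 0, with exact 95% intervals for counting error) that overlapped a peak of each of the 5 other antibody lists. Kept Dex peaks reach 57.3% at untreated A1-2 PR peaks and 61.4% at GR R5020 peaks, where gained ones reach 0.682% and 2.49%, and the order turns at MTVL PR peaks after R5020 (16.8% against 69.9%).

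The contrast with MTVL cells was no smaller at matched scores. Kept peaks scored higher in the Dex list, and high-scoring gained sites were more often MTVL sites: 49.3% in the lowest decile and 96.1% in the highest. Weighted to the score deciles of the kept peaks, gained sites lay at MTVL PR peaks in 79.1% of cases, against 16.8% for kept sites. At PR peaks of A1-2 cells the weighted value was 84.1% against 88.6%. In the highest decile 12 of 44 kept peaks (27.3%) were MTVL sites.

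**Figure D3:**
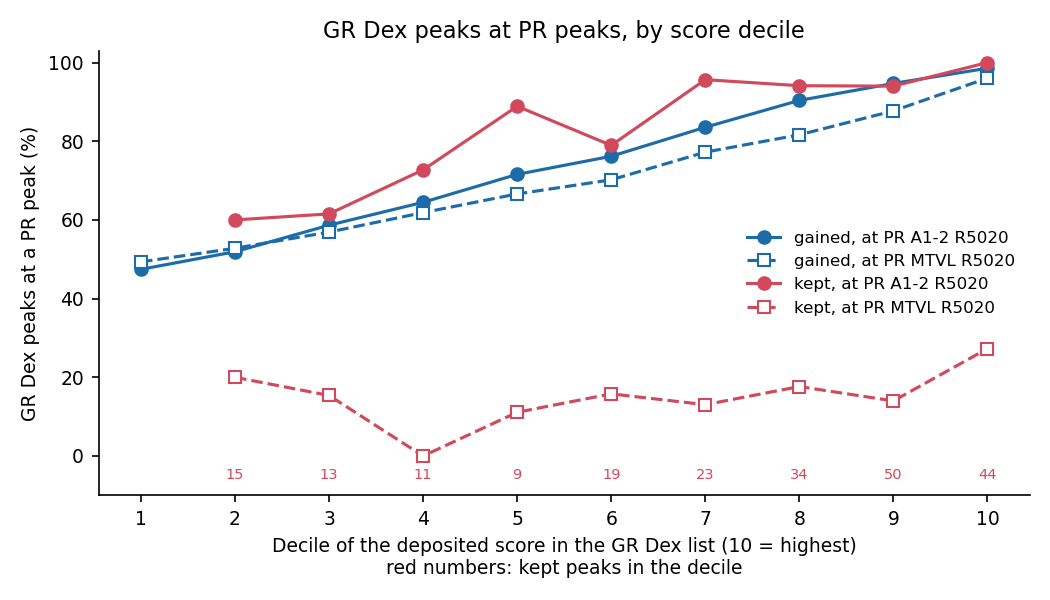
Share of GR Dex peaks at a PR peak after R5020 (percent) by decile of the Dex score, for gained (blue) and kept (red) peaks and for PR of A1-2 (filled circles) and MTVL cells (open squares). The decile of lowest scores, with 2 kept peaks, is left out for kept peaks. The red squares stay at 27.3% or below, under every blue square.

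Kept sites were more often shared with the other A1-2 lists, of GR after R5020 and of PR with and without hormone. Of the kept Dex peaks 57.3% (50.4 to 63.9) lay at a PR peak of untreated A1-2 cells and 61.4% (54.6 to 67.8) at a GR peak after R5020, against 1.36% and 3.19% of all GR Dex peaks. At an untreated MTVL PR peak lay 0 of them, which at 3 counts of the total allows a share of up to 1.36% (the exact interval ends at 1.66%), against 0.842% of all GR Dex peaks. The difference of kept and gained sites there, -0.852 points, had an interval of -0.996 to 0.869. A peak of all 3 other A1-2 antibody lists and of no MTVL list was present at 74 of them (33.6%, 27.4 to 40.3), compared with 52 of 18195 gained sites (0.286%, 0.214 to 0.375). At a PR peak of A1-2 cells after R5020 with no MTVL peak lay 162 kept sites (73.6%) and 1774 gained ones (9.75%). Lost sites resembled kept ones in MTVL cells, at 11.6% (6.33 to 19.0) against 14.2% (10.3 to 18.8) of kept untreated peaks and 13.5% of all untreated peaks, a difference of -2.58 points (-9.12 to 5.51). In A1-2 cells they were PR sites after R5020 in 39.3% (30.2 to 49.0) against 88.3% of kept untreated peaks, with 74.4% for all untreated peaks. At GR peaks after R5020 the values were 21.4% for lost, 56.7% for kept and 46.7% for all untreated peaks, and at untreated PR peaks of A1-2 cells 18.8%, 46.1% and 38.3%. Lost peaks scored lower than kept untreated ones (medians 113 and 148), and their shares were not compared at matched scores. None of the 394 untreated peaks lay at an untreated MTVL PR peak (0%).

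Part of the kept sites stood in runs, here stretches of at least 5 untreated GR peaks with gaps of at most 20 kb, a rule made after the data were seen. The 16 runs held 173 of 394 untreated peaks (43.9%), 102 of the 220 kept Dex peaks, 28 lost peaks and 135 gained ones (0.742%). In them 83.8% (77.5 to 89.0) of the untreated peaks were kept, and outside them 62.0% (55.2 to 68.4). Of the runs, 7 lay on chromosome 16 between 34 and 36 Mb, the longest from 34659643 to 34803646 with 24 kept and 5 lost untreated peaks and 33 gained sites. Shorter runs were on chromosome 2 from 99525053 to 99555208 (19 kept, 2 lost, 5 gained), on chromosome 3 from 60473953 to 60492098 (11 kept, 0 lost, 3 gained) and on chromosome 12 from 124000693 to 124019423 (10 kept, 0 lost, 2 gained). None of the 16 runs held an input peak or an untreated MTVL PR peak. Peaks at input peaks had been left out beforehand, so an input peak could appear only between the peaks of a run. Chromosome 16 as a whole held 40% of the kept Dex peaks and 34.8% of the lost peaks, against 5.82% of the gained ones. Chromosome X held 372 gained sites, 0 kept and 0 lost ones.

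Outside runs the contrast with MTVL cells was smaller and of the same direction. There 25.4% of 118 kept Dex peaks and 70.4% of 18060 gained sites were MTVL PR sites, a difference of -45.0 points (-52.0 to -36.4). At untreated A1-2 PR peaks the values were 51.7% and 0.532%. Inside runs few sites of either class were MTVL PR sites after R5020. The shares there were 6.86% (2.80 to 13.6) of 102 kept Dex peaks and 1.48% (0.180 to 5.25) of 135 gained sites. At GR peaks after R5020 they were 80.4% and 61.5%, so inside runs gained sites largely shared the pattern of kept ones. The runs did not cover all of chromosome 16 between 34 and 36 Mb, which held 71 kept Dex peaks and 200 gained sites. Some of these count as outside runs, among them a kept peak from 34870832 to 34874587. Shares without that whole stretch were not computed.

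A group of narrow kept peaks on chromosome 5 was named after its values were seen. The peaks were 117 to 219 bp wide without hormone, and each place was called in the GR list and in the PR list of untreated A1-2 cells. Whether they hold DNA of the introduced GR construct, in place of receptor bound at these positions, was not tested, so their scores are given as calls and not as binding. Untreated cells had 6 GR peaks there. The strongest reached from 142661446 to 142661586 (141 bp, score 2055), beside one from 142661207 to 142661396 (429). Others lay from 142674969 to 142675168 (206), from 142689662 to 142689778 (671), and from 142779272 to 142779490 (587) and 142779963 to 142780116 (327). After Dex they fell into 4 peaks, with scores of 1608, 111, 379 and 663 in that order. Untreated PR peaks of the same cells lay at each of these places, among them one from 142661446 to 142661656 (1872). No MTVL peak overlapped any of them, although 3 MTVL PR peaks after R5020 lay in between, one from 142718286 to 142719021 with a score of 1166.

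Gained sites stood further from their neighbours than kept ones. For gained sites the nearest other GR Dex peak was 17292 bp away at the median, midpoint to midpoint, with 4358 bp at the 25th percentile and 59341 bp at the 75th. A neighbour within 10 kb was present for 39.5% (38.8 to 40.2) of gained sites and for 78.2% (72.1 to 83.5) of kept Dex peaks, whose median distance was 2229 bp, or 4639 bp outside runs. By decile of score the median distance for gained sites was 21547 bp in the lowest, 25036 bp in the second and 22473 bp in the third. It lay between 18250 and 19328 bp in deciles 4 to 6, and was 16546, 15210, 12753 and 8879 bp in the 4 highest, in rising order of score. Within 10 kb of a kept Dex peak lay 295 gained sites (1.62%), and within 100 kb 604 (3.32%). Kept regions numbered only 220 (1.19% of all regions), and no share expected from that number was computed. Whether gained sites lay near or away from kept ones was therefore not tested.

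**Figure D4:**
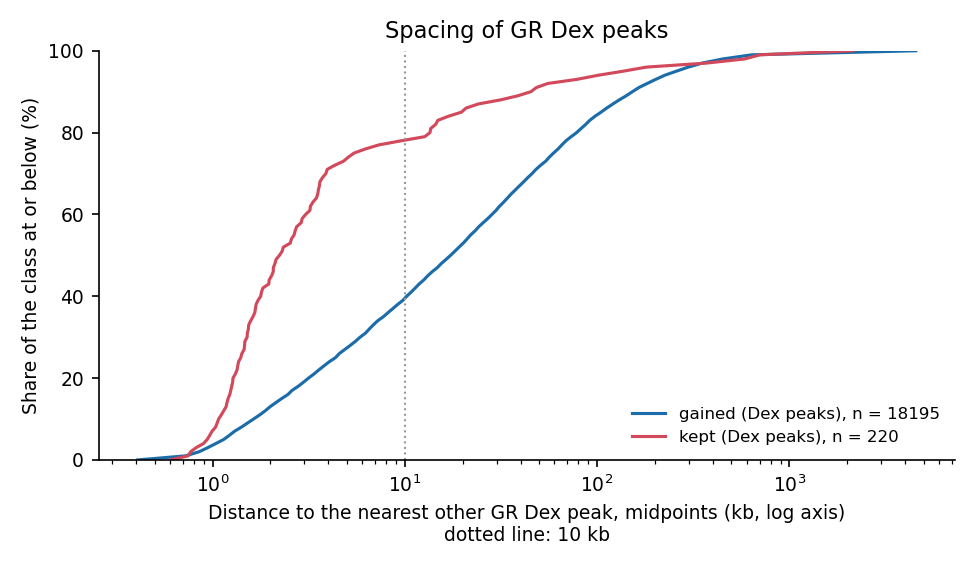
Cumulative share (percent) of gained and kept GR Dex peaks against the distance in kb to the nearest other GR Dex peak (log axis), with a dotted line at 10 kb. At that line 39.5% of the gained and 78.2% of the kept peaks are reached.

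In windows of 100 kb, 9526 held a gained site, 5333 of them (56.0%) a single one. Windows with 5 or more numbered 563 and held 3629 gained sites (19.9%). The 3 fullest were in the runs of chromosome 16, with 29 gained sites from 34600001 to 34700000, of which 17 were PR sites of A1-2 cells and 0 of MTVL cells. Outside runs, in windows named after their values were seen, chromosome 14 had 18 from 95700001 to 95800000, including the strongest peak of the list, with 0 untreated peaks, 17 at A1-2 PR peaks and 14 at MTVL PR peaks. Next were 15 sites on chromosome 3 from 14400001 to 14500000 (highest score 3100) and 15 on chromosome 11 from 65200001 to 65300000 (highest 1548), the former with 0 untreated peaks and the latter with 5.

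Broad GR peaks were rare. Of all 18415 GR Dex peaks 193 were 2000 bp wide or more, 147 of the gained sites (0.808%) and 46 of the kept ones (20.9%). Width enters this split, since a wider peak meets an untreated peak more easily. Among these 193 peaks, 26 lay on chromosome 16 between 85 and 86 Mb, and no other megabase held more than 16. The 3 widest gained peaks lay on chromosome 16 from 85609386 to 85617293 (7908 bp, score 1047), from 85502821 to 85510588 (7768 bp, 1583) and from 85667849 to 85674362 (6514 bp, 492). The widest kept peak, from 85598986 to 85606471 (7486 bp), stood among them: it scored 2768 after Dex and held 1 untreated peak of score 106. In the 500 kb from 85300001 to 85800000, chosen after the values were seen, there were 39 GR peaks after Dex (37 gained, 2 kept) that covered 127 kb, against 3 untreated GR peaks over 3.69 kb, 1 GR peak after R5020 and 0 input peaks. PR after R5020 had 50 peaks there in A1-2 cells (168 kb) and 41 in MTVL cells (114 kb). The megabase with 16 such peaks was on chromosome 3 between 193 and 194 Mb. They reached from 193496219 to 193999601, and 14 of them were gained.

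**Figure D5:**
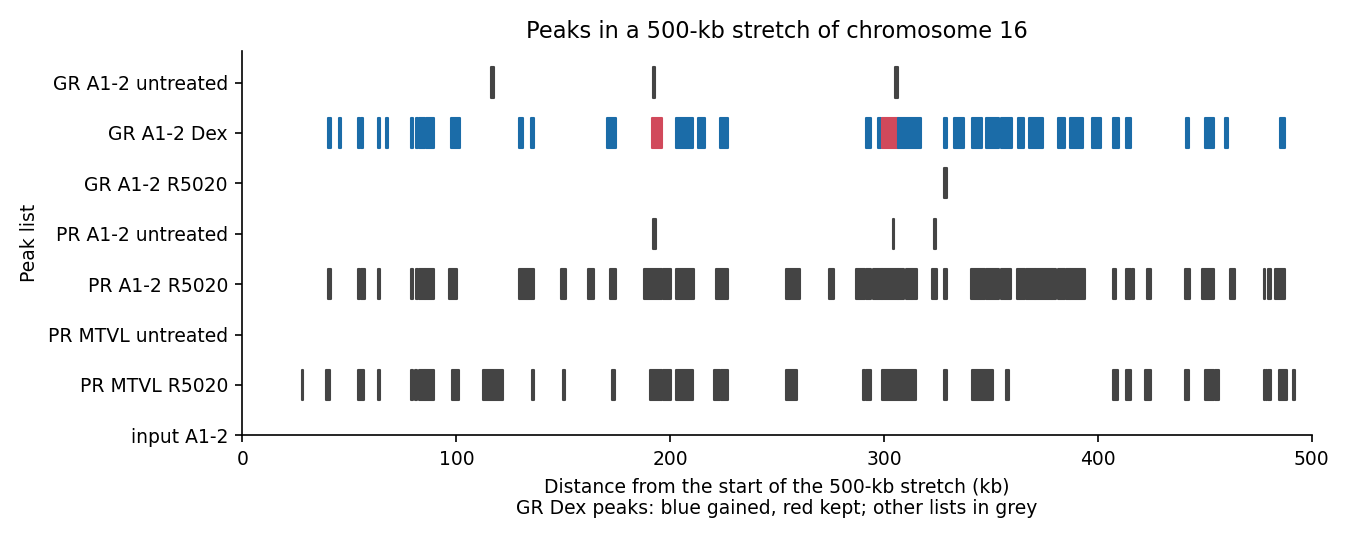
Called peaks of the 8 lists (rows) over a 500-kb stretch of chromosome 16, drawn to scale against the distance in kb from its start. GR peaks after Dex are blue where gained (37) and red where kept (2); PR after R5020 has 50 peaks in A1-2 and 41 in MTVL cells, and the input and untreated MTVL rows are empty.

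The PR experiments, split in the same way, gave other values for kept sites in the other cell line; there the other line's list was of PR too, while GR was set against MTVL lists of PR. For PR in A1-2 cells 377 of the R5020 peaks were kept and 42.4% (37.4 to 47.6) of them were MTVL sites, against 83.3% of 27885 gained ones. For PR in MTVL cells 241 were kept, 90.5% (86.0 to 93.9) of which were A1-2 PR sites, against 53.6% of 42829 gained ones. Kept peaks were wider than gained ones in each, with medians of 912 and 644 bp for PR in A1-2 cells and 1090 and 670 bp in MTVL cells. The share of untreated peaks kept was 71.6% (66.8 to 76.0) for GR, 76.5% (73.0 to 79.8) for PR in A1-2 cells and 99.5% (97.5 to 99.99) for PR in MTVL cells, each from 1 pair of libraries of unknown depth.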

How the data were processed

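Peaks were deposited as 1 list per library. Per the submitters' processing notes, the tools were Bowtie 1.1.1, bedtools and MACS 1.4.2, on hg19. Their settings, the control library and the read depth were not given in the sources used here. The deposited score is not normalized, and its lowest value of 100 fits the p of 1e-10 in the deposited names. Of 455 untreated GR peaks, 20 lay outside chromosomes 1 to 22 and X and 41 at input peaks, which left 394. Of 18538 Dex peaks 12 and 111 were left out, which left 18415.

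Overlap, spacing, runs of close peaks, exact (Clopper-Pearson) intervals for shares and Newcombe intervals for differences were computed with Python 3.11.15, numpy 2.4.6, scipy 1.17.1, pandas 2.3.3 and statsmodels 0.14.6. Figures were drawn with matplotlib 3.10.9. The overlap step was tested on simulated data, and bedtools 2.31.1 gave the same counts on the deposited lists. Positions count from 1.

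Samples were grouped by title. In each class the 5 sites of highest score, the 3 widest, the 3 most isolated and the 3 fullest windows of 100 kb were listed by rule, and the text gives the first ones. The runs were defined after the data were seen, as were the named windows outside them. The members and lists were chosen with earlier results of these data known. The gene table used here has other coordinates than hg19, so sites are named by position, with 0 genes placed, and the planned gene list was not used here.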

Additional observations from a re-analysis of the deposited data

Results flagged for a closer look

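Peaks on the mitochondrial DNA, which the comparison leaves out, numbered 3 in the untreated GR list and 1 in the GR Dex list. The untreated PR list of A1-2 cells held 3 as well, so they were not particular to GR. The A1-2 input list and the remaining antibody lists held 0.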

How the results depend on the processing

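Over 9 results and 62 alternatives, 33 values stayed within the main value's 95% interval (counts within 1.5 times) and 29 moved further. The difference of kept and gained sites at A1-2 PR peaks, 15.0 points, turned to -5.42 with midpoints within 200 bp. Alternatives outside runs, and all those for MTVL sites, were added after the data were seen. In every alternative kept sites were MTVL PR sites less often than gained ones, with differences of -62.1 to -45.0 points. Sites inside runs alone, at 6.86% for kept and 1.48% for gained, were not among the alternatives. Where scores had to reach 200 in each list, 81.8% of 88 untreated peaks were kept, 8795 sites were gained and 16 lost, gained sites were at PR peaks in 78.7% (A1-2) and 73.9% (MTVL), kept ones at MTVL peaks in 11.9%, and 29.9% of gained sites had a neighbour within 10 kb. With midpoints within 200 bp, 35.5% were kept and 254 lost, and A1-2 PR peaks lay at 68.4% of gained, 63.0% of kept and 24.4% of lost sites, with 63.1% of gained sites at MTVL peaks. Gaps of up to 500 bp gave 77.9% kept, and 74.9% and 71.5% of gained sites at PR peaks of A1-2 and MTVL cells. With the Dex list cut to the 394 highest scores, 6.60% were kept, 383 gained and 368 lost, PR peaks of A1-2 cells lay at 98.2% of gained, 100% of kept (11 of 11) and 72.6% of lost sites, MTVL ones at 96.1% and 45.5% of gained and kept, and 6.01% of gained sites had a neighbour, by construction of a shorter list. Outside runs, 62.0% were kept and 25.4% of kept sites were MTVL sites. Neighbours within 5 and 20 kb were present for 27.4% and 52.8% of gained sites. Except where a shorter list is the cause, the cause was not tested. No paired analysis was possible because each condition has 1 library. Unknown depth limits every count of gained and lost sites.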

Other observations

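PR peaks of MTVL cells called without hormone met many GR Dex peaks. Of these 219 PR peaks 144 (65.8%, 59.1 to 72.0) overlapped a GR Dex peak, all of them at gained sites, which make up 98.8% of the Dex list. The 0 of 220 kept Dex peaks at one were too few to set kept and gained sites apart. The 155 gained sites concerned had a median score of 487, against 192 for all gained sites. Of the 155, 64 were in the highest score decile of the Dex list, 154 were also PR sites of A1-2 cells after R5020 and 7 were PR sites of untreated A1-2 cells. All 219 untreated MTVL PR peaks lay apart from the 394 untreated GR peaks, with 0 overlaps.

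Gained sites at no PR peak of either line after R5020 numbered 3698 (20.3%, 19.7 to 20.9) and were weak, with a median score of 136. Only 10 of the 1055 gained sites with a score of 1000 or more were among them. Their highest score, 2637, was on chromosome 6 from 167312015 to 167316199 (4185 bp), ahead of 143884133 to 143886079 on chromosome 8 (2229). Then followed 131771995 to 131773229 on chromosome 12 (2144) and 80975251 to 80976323 on chromosome 17 (1999.7).

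The 3 most isolated kept untreated peaks were all GR sites after R5020 too, as were 160 of all 282 kept untreated peaks (56.7%). The one from 10679696 to 10679996 on chromosome 7 (score 125.03) was in a GR peak of 697 after Dex and in one of 3205 after R5020, the highest score of that list. On chromosome 6 the untreated peak from 104165855 to 104166121 (223) had 305 after Dex and 3100 after R5020, and the one from 50484174 to 50484353 (110) had 149 and 718. None of the 3 untreated peaks overlapped an MTVL peak, and of all kept untreated peaks only 14.2% lay at an MTVL PR peak after R5020. The GR peaks after R5020 at these places were wide for a list with a median width of 978 bp. On chromosome 7 the peak spanned 10671419 to 10682765, and on chromosome 6 the peaks spanned 104162806 to 104168996 and 50482993 to 50485225. The most isolated gained site spanned 95687754 to 95688230 on chromosome X, 4548047 bp from the nearest GR Dex peak, and was a PR site of both lines after R5020.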
